A study of Mus musculus with 6 samples.

Results

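TRBV13 is the mouse T cell receptor β (TCR-β) variable gene family known in the older nomenclature as Vβ8. It has 3 genes, TRBV13-1 (Vβ8.3), TRBV13-2 (Vβ8.2) and TRBV13-3 (Vβ8.1). Their members were taken here as every deposited sequence assigned to 1 of these genes whose complementarity-determining region 3 (CDR3) carried no stop or frame mark, called productive. Sequences with the same TRBV gene, the same TRBJ gene and the same CDR3 residues form a clonotype. The family held 43885 of the 187625 productive clonotypes of the 6 libraries and 3 of the 23 TRBV genes. TRBV13-2 had 22423 clonotypes, TRBV13-1 had 11205 and TRBV13-3 had 10257.

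In a developing T cell, a V gene is joined to a D and a J gene to make the β chain, and the joint encodes CDR3, the loop that lies over the presented peptide. The V gene itself encodes the CDR1 and CDR2 loops and the first residues of CDR3, so family members differ in parts that touch the MHC molecule. In mice the Vβ8 genes are used by a large part of conventional T cells. They are also the main β chains of invariant natural killer T (NKT) cells, which recognise lipids on CD1d and share an invariant α chain, and TRBV29 and TRBV1 are the other β genes of those cells. The α chain was not measured in these libraries, and a β chain alone does not identify an NKT cell.

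The libraries came from C57BL/6 mice, for which no genetic change is labelled. On day 0 the mice received 100000 MO4 cells, a B16F10 melanoma line made to express ovalbumin, under the skin of each hindlimb. IFN-α-iPSC-pMC are myeloid cells made from induced pluripotent stem cells that produce interferon-α. Injections of 1000000 of them were made beside the right tumor on each day from 5 to 7 and again on days 12 and 13, and tumor RNA was taken on day 14. The injected tumor is the treated tumor, the left tumor of the same mice is the distant tumor, and spleen was also taken, with 2 libraries each from 2 mice. All 3 tissues thus come from mice that carried both tumors and received the cells, and no library is from an untreated mouse. Only TCR-β transcripts were read, so the tissue labels could not be checked against marker genes.

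Libraries had 42320 to 135599 productive reads, of which 9081 to 31537 were assigned to TRBV13. The TRBV13 reads were 19178 in treated tumor 1, 13806 in treated tumor 2, 11328 in distant tumor 1, 9081 in distant tumor 2, 24529 in spleen 1 and 31537 in spleen 2. Intervals below are Wilson 95% intervals. They cover counting error only, because PCR without molecular identifiers multiplies a molecule into many reads. Where no read was found, the limit taken is 3 reads, between 0.00221% and 0.00709% of a library.

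The 3 genes lie side by side on chromosome 6 (GRCm38, plus strand), each with 2 exons and annotated as a TR V gene. TRBV13-1 spans 41116007 to 41116468, TRBV13-2 spans 41121396 to 41121832 and TRBV13-3 spans 41130147 to 41130585, with 4927 bases between the first pair and 8314 between the second. Exon 2, which encodes nearly all of the variable domain, has 294 bases in each. Its sequence is 91.8% identical between TRBV13-2 and TRBV13-3, 88.8% between TRBV13-1 and TRBV13-2 and 86.1% between TRBV13-1 and TRBV13-3. The last 60 bases of exon 2 are shown from the annotation's transcripts because they encode the start of CDR3. Capitals run from the codon of the conserved cysteine, the first residue of CDR3, to the end of the gene.
TRBV13-1 (chr6:41116409-41116468): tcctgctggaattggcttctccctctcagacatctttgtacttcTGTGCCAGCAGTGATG
TRBV13-2 (chr6:41121773-41121832): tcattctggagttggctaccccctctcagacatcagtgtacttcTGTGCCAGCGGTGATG
TRBV13-3 (chr6:41130526-41130585): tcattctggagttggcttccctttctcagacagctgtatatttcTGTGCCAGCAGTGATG

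The 16 capital bases are the same in TRBV13-1 and TRBV13-3. TRBV13-2 differs from both by A10G, counted from the first base of the cysteine codon, which gives the residue change S4G in CDR3. The germline start is therefore CASSD for TRBV13-1 and TRBV13-3 and CASGD for TRBV13-2. Of the 23 TRBV genes in the data, 1 ends in the letters GGTGATG and 2 end in AGTGATG, which are the 3 members.

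The productive CDR3s carried this difference. Among TRBV13-2 clonotypes 77.8% began with CASG and 2.43% with CASS. CASS opened 70.3% of TRBV13-1 clonotypes and 69.7% of TRBV13-3 clonotypes, with CASG in 2.03% and 2.92%. The germline start with residue 5, CASGD, was kept in 40.9% of TRBV13-2 clonotypes, and CASSD in 35.5% of those of TRBV13-1 and 30.7% of those of TRBV13-3. In the pooled clonotypes of all other TRBV genes, CASSD opened 0.411%.

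The family was the most used in 5 of 6 libraries, and its lowest share was in distant tumor 1. It took 23.1% of the productive reads of treated tumor 1, 24.6% of treated tumor 2, 13.8% of distant tumor 1, 21.5% of distant tumor 2, 25.3% of spleen 1 and 23.3% of spleen 2. In distant tumor 1 it ranked 2 of 20 families behind TRBV12 with 28.6%. Both treated tumors lay above both distant tumors. That order did not hold once every library was read without its 10 leading clonotypes. The family's shares were then 21.9% and 25.4% in the treated tumors and 22.5% and 21.8% in the distant tumors, with 25.4% and 23.3% in the spleens. In distant tumor 1 the family had 11328 reads both with and without the 10 leading clonotypes, so none of these was of TRBV13. A share of reads can fall with fewer cells, with less receptor RNA per cell or when other clonotypes take more of the reads. Which of these applied was not tested.

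TRBV13-2 was the leading member. It took 14.0% of the reads of treated tumor 1, 9.49% of treated tumor 2, 8.09% of distant tumor 1, 10.6% of distant tumor 2, 14.3% of spleen 1 and 12.2% of spleen 2. It was the most used of all 23 TRBV genes in treated tumor 1 and both spleens, and ranked 3 in treated tumor 2 and distant tumor 2 and 5 in distant tumor 1. Its treated tumors were above the distant tumor in number 1 and below it in number 2.

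TRBV13-1 took 5.47% and 7.55% of the reads of treated tumors 1 and 2, 3.45% and 6.74% of distant tumors 1 and 2, and 5.88% and 5.58% of spleens 1 and 2. TRBV13-3 took 3.58% and 7.59% of treated tumors 1 and 2, 2.24% and 4.09% of distant tumors 1 and 2, and 5.16% and 5.48% of spleens 1 and 2. For both genes the treated tumor was above the distant tumor of the same number, while the groups of treated and distant tumors overlapped. TRBV13-1 averaged 5.73% ± 0.212 in the spleens and 5.80% ± 1.78 in the tumors (SD, n = 2 and n = 4), so its spread was wider among tumors. Without each library's 10 leading clonotypes, TRBV13-1 was lower in treated tumor 1 (4.69%) than in distant tumor 1 (5.63%). In number 2 the treated tumor stayed above the distant one, at 7.25% and 6.22%. TRBV13-3 kept this order in both numbers, at 4.25% and 3.65% in number 1 and 7.67% and 5.14% in number 2.

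**Figure D1:**
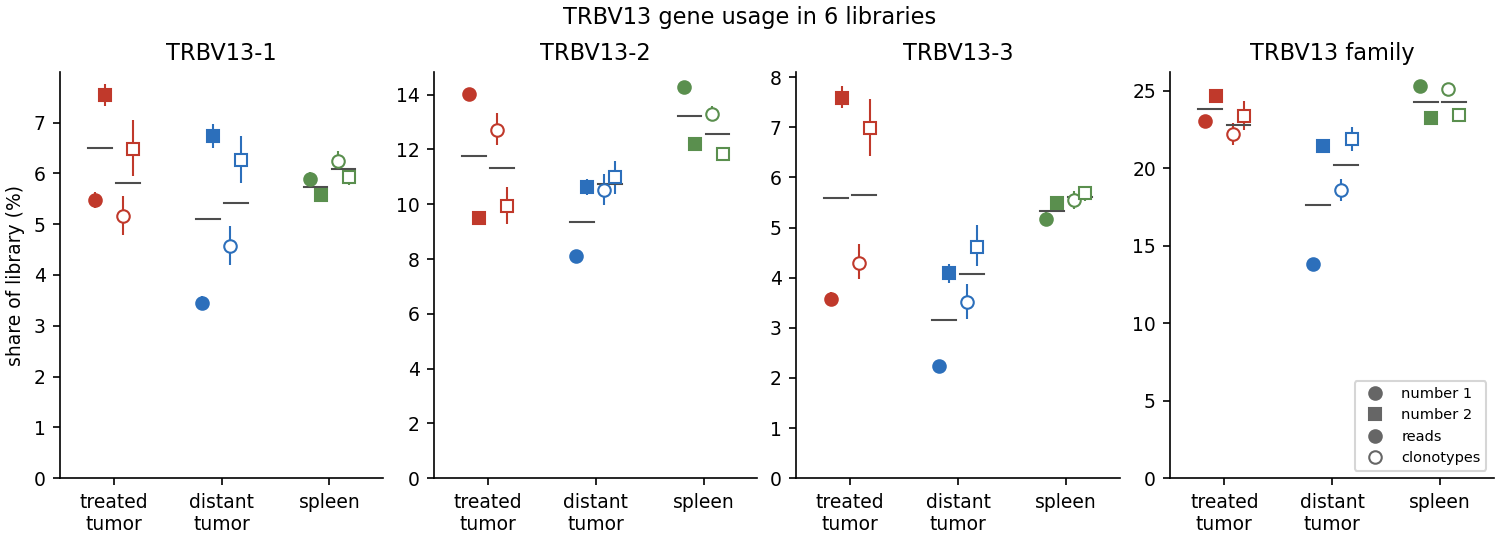
Share of each library (%) taken by the 3 TRBV13 genes and the family, as productive reads (filled) and as clonotypes counted once (open), with Wilson 95% intervals and group means as lines (n = 2 libraries). Distant tumor 1 is the lowest library for each gene and for the family by reads, and treated tumor 2 the highest for TRBV13-1 and TRBV13-3.

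No member passed the usage test in either comparison. Between treated and distant tumors, 0 of 23 TRBV genes passed at an adjusted p of 0.05 (0%, edgeR's quasi-likelihood test, Benjamini-Hochberg adjustment), with 3 genes at an unadjusted p under 0.05, none of them a member, and 2 non-members called by DESeq2. TRBV13-3 had the widest difference of the members, with a log2 fold change of 0.82 (SE 0.48, 95% interval -0.35 to 2.00, edgeR adjusted p = 0.321). It rested on treated tumor 2, without which it was 0.18, below the 0.58 of TRBV13-2, and it was 1.32 without distant tumor 2. TRBV13-1 had 0.35 (SE 0.42, -0.66 to 1.37) and TRBV13-2 had 0.33 (SE 0.39, -0.61 to 1.26), both with an edgeR adjusted p of 0.533. The value of TRBV13-1 was the middle one of the members and of all 23 genes, so both medians were the same 0.35. With TMM scaling both medians were 0.16. With DESeq2 the TRBV13-2 value was -0.00246. The intervals leave room for more than a doubling of TRBV13-1 or TRBV13-2 and for a smaller fall.

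Between the 4 tumors and the 2 spleens, 0 of 23 genes passed (0%, edgeR), with 4 genes at an unadjusted p under 0.05, none of them a member, and 2 non-members called by DESeq2. The log2 fold changes were 0.01 for TRBV13-1 (SE 0.36, edgeR adjusted p = 0.986), -0.33 for TRBV13-2 (SE 0.33, adjusted p = 0.666) and -0.34 for TRBV13-3 (SE 0.41, adjusted p = 0.775). With TMM scaling the TRBV13-1 value was -0.00883, so its direction is not fixed by these libraries. The other β genes of mouse NKT cells did not pass either. TRBV1 took 5.55%, 4.87%, 2.95% and 4.01% of the reads of treated tumors 1 and 2 and distant tumors 1 and 2, against 8.51% and 7.16% in the spleens (log2 fold change -0.88, edgeR adjusted p = 0.185). TRBV29 took 4.92%, 3.73%, 9.46% and 4.402% of the same tumors and 4.83% and 5.46% of the spleens (log2 fold change 0.09, edgeR adjusted p = 0.963). The tumors of TRBV1 thus did not overlap its spleens, and those of TRBV29 lay on both sides. Tumors and spleens also did not overlap for TRBV4, TRBV5, TRBV21, TRBV30 and TRBV31, so this separation was not particular to TRBV1.

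Within the family, TRBV13-2 supplied the largest part in each of the 6 libraries. Its part of the TRBV13 reads was 60.8% in treated tumor 1, 38.5% in treated tumor 2, 58.7% in distant tumor 1, 49.6% in distant tumor 2, 56.4% in spleen 1 and 52.4% in spleen 2 (mean 52.7% ± 8.06, SD, n = 6 libraries). TRBV13-1 made up 26.3% ± 3.68 and TRBV13-3 20.9% ± 5.66 of the family's reads. Treated tumor 2 stood apart, since TRBV13-3 reached 30.8% there and 15.5% to 23.6% in the other 5 libraries. Counted as clonotypes, TRBV13-3 still had 29.8% in treated tumor 2 and 18.9% to 24.2% elsewhere. The order TRBV13-2, TRBV13-1, TRBV13-3 held in 5 libraries by reads, while in treated tumor 2 (30.6% and 30.8%) and spleen 2 (24.0% and 23.6%) the intervals of TRBV13-1 and TRBV13-3 overlapped.

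The genes whose usage pattern lay nearest to each member were found from log2 shares centred over the 6 libraries, by Euclidean distance among 22 genes, as a description. The nearest to TRBV13-1 were TRBV13-3 (0.74), TRBV3 (0.74) and TRBV5 (0.90). The nearest to TRBV13-2 were TRBV12-2 (0.46), TRBV15 (0.72) and TRBV1 (0.73), and to TRBV13-3 they were TRBV13-1 (0.74), TRBV4 (0.84) and TRBV2 (1.09). TRBV13-2 was not among the 3 nearest of either other member.

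Reads of each gene were concentrated in few clonotypes in tumors and spread over many in spleens. The 10 most abundant TRBV13-1 clonotypes held 52.3% and 62.3% of the gene's reads in treated tumors 1 and 2, 45.4% and 48.6% in distant tumors 1 and 2, and 3.10% and 1.93% in spleens 1 and 2. For TRBV13-2 these were 43.3% and 44.9%, 23.9% and 33.1%, and 3.06% and 2.46%. For TRBV13-3 they were 31.9% and 58.2%, 36.3% and 35.7%, and 2.48% and 2.39%. Every tumor thus lay above both spleens for each gene. The exact permutation test (two-sided, 4 tumors against 2 spleens) gave 0.067 for each gene, the smallest p it allows, and 0.133 after adjustment over the 6 tests of this measure. The 4 tumors come in pairs from 2 mice and are not independent, and p-values here measure the spread between libraries.

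Between treated and distant tumors the top-10 shares did not overlap for TRBV13-1 (57.3% ± 7.08 against 47.0% ± 2.30, SD, n = 2 each) or TRBV13-2 (44.1% ± 1.17 against 28.5% ± 6.55). For TRBV13-3 they overlapped (45.1% ± 18.6 against 36.0% ± 0.410). With 2 libraries a group the exact permutation test cannot go below 0.33, the value for TRBV13-1 and TRBV13-2, and it gave 1 for TRBV13-3 (two-sided, n = 2 each). Without treated tumor 2 the TRBV13-3 difference turned to -4.09 percentage points.

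The number of clonotypes that held 50% of a gene's reads shows the same contrast. For TRBV13-1 it was 8 and 5 in the treated tumors, 15 and 11 in the distant tumors and 1192 and 1676 in the spleens. For TRBV13-2 it was 17 and 13, 44 and 49, and 2135 and 2815, and for TRBV13-3 it was 26 and 7, 21 and 25, and 1091 and 1526. The single leading TRBV13-1 clonotype held 28.0%, 25.1%, 14.8% and 26.6% of its reads in treated tumors 1 and 2 and distant tumors 1 and 2. The leading clonotype of TRBV13-2 held 11.7%, 14.3%, 5.05% and 11.8%, and that of TRBV13-3 held 5.51%, 21.3%, 11.5% and 8.04%. In all 4 tumors the leading TRBV13-1 clonotype held a larger part of its gene than the leading clonotype of either other member held of its own.

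**Figure D2:**
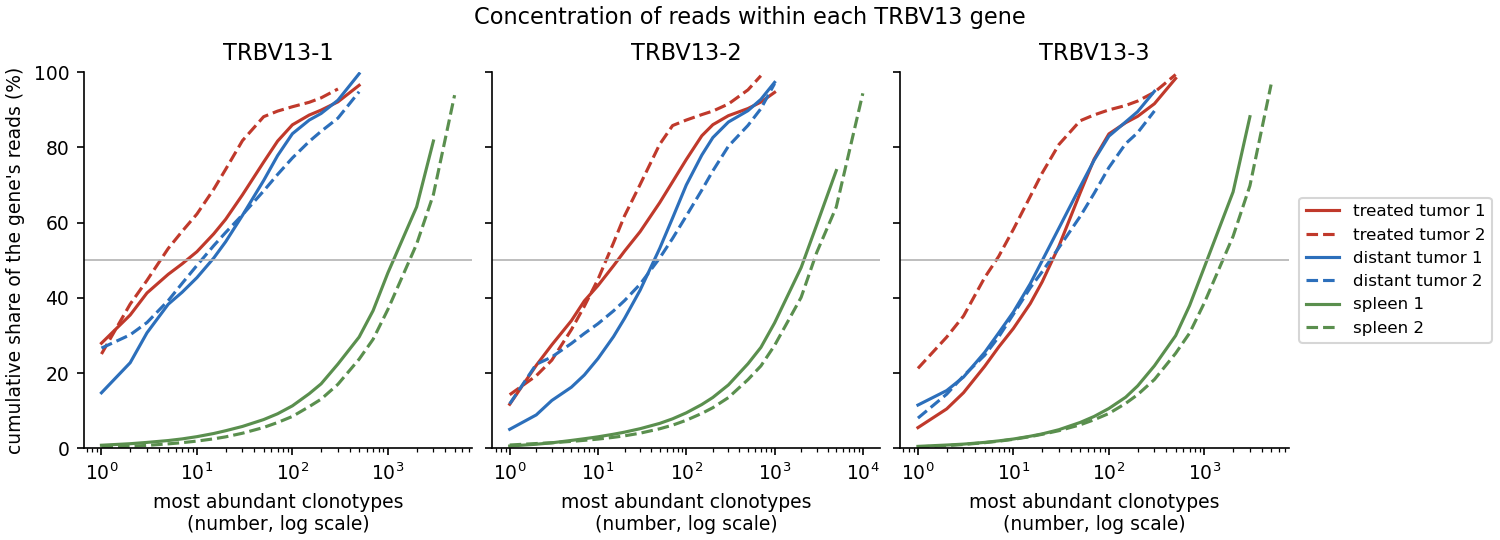
Cumulative share of a gene's reads (%) against the number of its most abundant clonotypes (log scale), per library, with the grey line at 50%. The tumor curves start between 5.05% and 28.0% and cross 50% within 49 clonotypes, while the spleen curves cross it after more than 1000.

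At equal depth the tumors held fewer clonotypes of each gene than the spleens. From 2838 TRBV13-1 reads, 464 and 354 clonotypes were drawn in treated tumors 1 and 2, 511 and 646 in distant tumors 1 and 2, and 2305 and 2435 in spleens 1 and 2. From 4500 TRBV13-2 reads these were 787 and 652, 889 and 1136, and 3600 and 3811. From 1729 TRBV13-3 reads they were 369 and 257, 376 and 478, and 1501 and 1542. All tumors were below both spleens, and both treated tumors below both distant tumors, for each gene. The exact permutation test (two-sided) gave 0.067 for 4 tumors against 2 spleens (adjusted 0.133 over 6 tests) and 0.33 for treated against distant tumors (n = 2 each), the smallest values these designs allow.

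Without clonotypes of 1 read the treated and distant tumors were no longer separate for TRBV13-1 and TRBV13-3. Treated tumors 1 and 2 then held 151 and 85.0 TRBV13-1 clonotypes from 2381 reads, against 142 and 177 in the distant tumors. For TRBV13-3 the values from 1396 reads were 125 and 80.7 against 120 and 145, and for TRBV13-2 from 3713 reads they were 279 and 125 against 293 and 349. The groups overlapped for TRBV13-1 and TRBV13-3 (exact permutation p = 0.667, two-sided, n = 2 each) and did not for TRBV13-2 (p = 0.33, exact, n = 2 each). Spleens stayed above all tumors, at 966 and 1222 for TRBV13-1, 2048 and 2226 for TRBV13-2, and 797 and 920 for TRBV13-3.

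**Figure D3:**
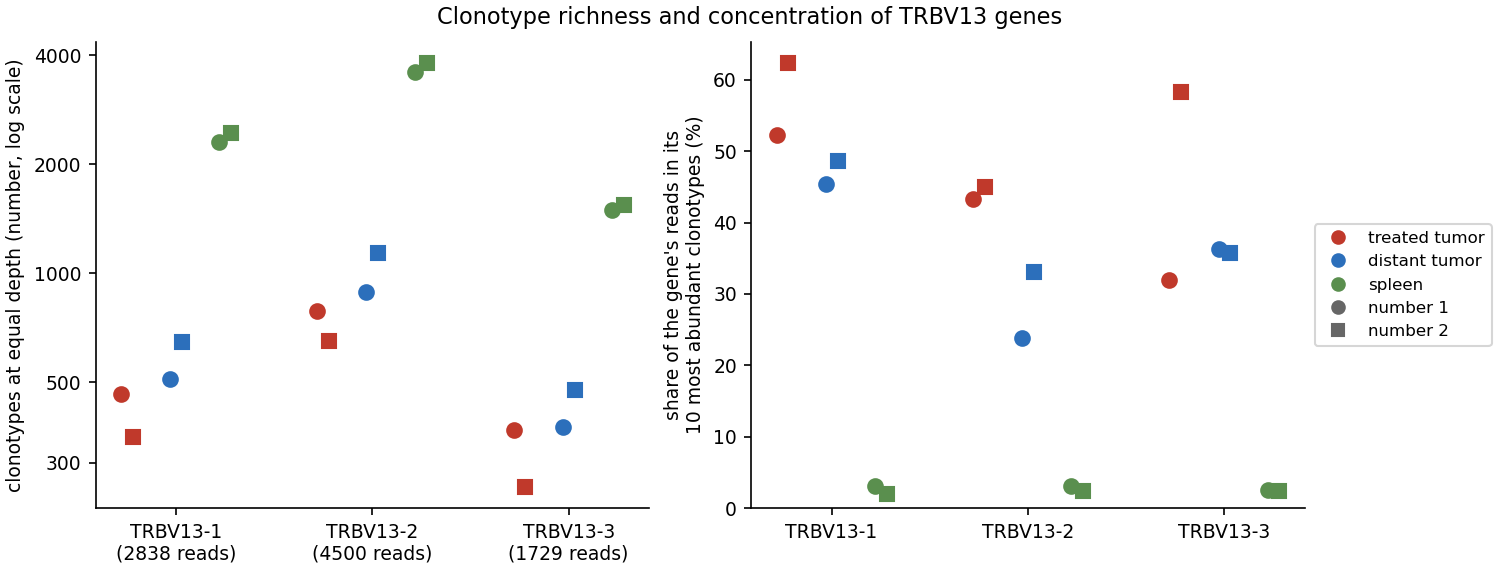
Left, clonotypes of each gene expected at the equal number of reads given under its name (log scale); right, share of the gene's reads (%) in its 10 most abundant clonotypes, with 1 point per library. Tumors lie below the spleens on the left and above them on the right for each gene, and treated tumor 1 lies below both distant tumors in the top-10 share of TRBV13-3.

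Tumor clonotypes of 1 read also looked different from those of spleens at the start of CDR3. Among TRBV13-1 clonotypes of 1 read, CASS opened 32.6% to 48.0% of the 4 tumors' clonotypes, against 73.2% and 73.7% for the spleens. Among those of 2 or more reads it opened 56.2% to 85.2% in tumors and 87.2% and 88.1% in spleens. For TRBV13-2, CASG opened 47.9% to 51.4% of tumor clonotypes of 1 read against 79.0% and 79.8% in spleens. For TRBV13-3, CASS opened 40.8% to 52.6% against 71.2% and 71.5%. By reads the gap was small for TRBV13-2, with CASG in 89.6% to 92.9% of tumor reads and 87.9% and 89.6% of spleen reads. It was also small for TRBV13-3, with CASS in 75.4% to 82.9% of tumor reads and 75.8% and 77.2% of spleen reads. For TRBV13-1 it stayed wide in the treated tumors, where CASS opened 49.6% and 45.7% of reads, against 81.9% and 77.1% in the distant tumors and 80.8% and 79.8% in the spleens. In treated tumor 1, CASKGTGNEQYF alone held 28.0% of TRBV13-1 reads, and in treated tumor 2 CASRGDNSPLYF and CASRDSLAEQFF held 25.1% and 13.3%. These clonotypes lack the CASS start, so much of the gap lay in single leading clonotypes.

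Many of the tumors' rare clonotypes were also close to an abundant one. Merging a clonotype into another with the same genes and length, 1 residue apart and at least 10 times the reads, removed 15.3% to 39.5% of a gene's clonotypes in tumors and 0.278% to 2.15% in spleens. A gene's clonotypes had 1.39 to 1.61 reads on average in spleens and 3.62 to 8.67 in tumors. Few spleen clonotypes could thus meet the limit of 10 times the reads, and the rule cannot compare the tissues. The highest losses were in treated tumor 2, at 38.5% for TRBV13-1, 36.0% for TRBV13-2 and 39.5% for TRBV13-3. The part of read errors in these rare clonotypes was not tested. The differences in richness between the groups at equal depth kept their direction after merging.

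Clonotypes with at least 0.1% of a library's productive reads were counted as abundant. TRBV13 supplied 30 of 133 in treated tumor 1, 49 of 190 in treated tumor 2, 17 of 71 in distant tumor 1, 22 of 100 in distant tumor 2, 0 of 4 in spleen 1 and 1 of 4 in spleen 2. In the tumors these are 22.6%, 25.8%, 23.9% and 22.0% of the abundant clonotypes, beside 22.2%, 23.4%, 18.6% and 21.9% of all clonotypes. In 3 tumors the family thus had nearly the same part of both. In distant tumor 1 its part of the abundant ones was higher, on 17 of 71 clonotypes, and this difference was not tested. In treated tumor 2, 17 of the 49 were TRBV13-3, a gene with 29.8% of the family's clonotypes there. In distant tumor 1, 1 of the 17 was, beside 18.9% of the family's clonotypes.

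The leading clonotypes are given with their reads because they carry the concentration described above. Among TRBV13-1 clonotypes, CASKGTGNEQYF (TRBJ2-7) had 1272 reads in treated tumor 1 (1.53%, 1.45% to 1.62%) and 0 in the other 5 libraries. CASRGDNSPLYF (TRBJ1-6) had 1061 reads in treated tumor 2 (1.89%, 1.78% to 2.01%), 68 in distant tumor 2 (0.161%) and 0 elsewhere, an 11.8-fold higher share in the treated tumor. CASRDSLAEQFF (TRBJ2-1) had 562 reads in treated tumor 2 and 88 in distant tumor 2, with 4 in spleen 2 and 0 in the libraries of number 1. These 3 lack the germline CASS start, with K or R at position 4 of CDR3.

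The distant tumors had other leading TRBV13-1 clonotypes. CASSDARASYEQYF (TRBJ2-7) had 419 reads in distant tumor 1 (0.510%, 0.464% to 0.561%) and 57 in treated tumor 1 (0.0685%), a share 7.44 times higher in the distant tumor, and 0 in the other 4 libraries. A TRBJ2-4 clonotype with a CDR3 of 15 residues had 760 reads in distant tumor 2 (1.80%, 1.67% to 1.93%), 144 in treated tumor 2 (0.257%) and 1 in spleen 2. Another of 15 residues with TRBJ2-1 was second in both tumors of number 1, at 341 reads (treated) and 227 reads (distant). A neighbour that differs by D5E (position 5 of CDR3, D in the neighbour) was second in distant tumor 2, with 101 reads there, 10 in treated tumor 2 and 0 in the libraries of number 1. The pair thus split by number, apart from 1 read of the first in treated tumor 2.

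Several leading TRBV13-2 clonotypes kept the germline CASGD start. The TRBJ2-2 clonotype with a CDR3 of 14 residues that starts CASGDV had 1365 reads in treated tumor 1 and 269 in treated tumor 2, against 13 and 7 in distant tumors 1 and 2 and 2 and 5 in the spleens. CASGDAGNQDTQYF (TRBJ2-5) had 1206 reads in treated tumor 1 (1.45%, 1.37% to 1.53%) and 122 in distant tumor 1 (0.149%), but 17 in treated tumor 2 and 19 in distant tumor 2, where its share was 0.0303% and 0.0449%. It had 20 and 32 reads in spleens 1 and 2, ranks 13 and 4 among the gene's clonotypes there. Treated over distant was thus far above 1 in both numbers for the first and 9.76 and 0.675 in numbers 1 and 2 for the second.

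The TRBJ2-1 clonotype of 14 residues that starts CASGDGG led TRBV13-2 in treated tumor 2 (758 reads), distant tumor 2 (532 reads) and spleen 2 (146 reads). It had 11 reads in treated tumor 1, 0 in distant tumor 1 and 15 in spleen 1, so both numbers held it at different levels. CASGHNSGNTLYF (TRBJ1-3) had 474 reads in distant tumor 2 (1.12%, 1.02% to 1.22%) and 1 read each in treated tumor 2, spleen 1 and spleen 2. In distant tumor 1 the leaders were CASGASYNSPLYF (TRBJ1-6, 336 reads, with 35 in treated tumor 1, 10 in spleen 1 and 3 in spleen 2) and a TRBJ1-1 clonotype of 14 residues that starts CASGDGD (255 reads, with 52 in treated tumor 1 and 16 in spleen 1). Their shares were 9.72 and 4.97 times higher in the distant than in the treated tumor of number 1. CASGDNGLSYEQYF (TRBJ2-7) tied with the latter at 255 reads in distant tumor 1 and ran the other way, with 636 reads in treated tumor 1, a share 2.46 times higher there, and 0 in the other 4 libraries.

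Spleen leaders of TRBV13-2 were smaller. In spleen 1 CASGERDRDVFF (TRBJ1-1) had 84 reads (0.0867%) and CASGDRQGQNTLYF (TRBJ2-4) had 67 (0.0691%), and both were found in distant tumor 1, with 13 and 26 reads. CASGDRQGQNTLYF also had 23 reads in treated tumor 1 and 3 in distant tumor 2. In spleen 2 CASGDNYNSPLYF (TRBJ1-6) had 65 reads (0.0479%), with 31 in spleen 1 and at most 6 in a tumor. TRBV13-1 spleen leaders were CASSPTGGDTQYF (TRBJ2-5, 47 reads in spleen 1, with 11 and 22 in treated and distant tumor 1 and 0 in number 2) and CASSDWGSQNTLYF (TRBJ2-4, 25 reads in spleen 2, with 11 in distant tumor 2). A TRBJ2-1 clonotype of 15 residues followed in spleen 1 with 23 reads and was in no other library. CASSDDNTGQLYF (TRBJ2-2) and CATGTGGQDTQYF (TRBJ2-5) followed in spleen 2 with 17 reads each and had 0 in every tumor.

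TRBV13-3 was led in treated tumor 2 by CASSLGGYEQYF (TRBJ2-7) with 905 reads (1.61%, 1.51% to 1.72%), 110 in distant tumor 2 (0.260%) and 10 in spleen 2, and 0 in number 1. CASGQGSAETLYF (TRBJ2-3) had 354 reads there and 10 in distant tumor 2. In distant tumor 2, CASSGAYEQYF (TRBJ2-7) led with 139 reads, had 0 in treated tumor 2 and 24 in spleen 2, and was thus at least 61.4-fold higher in the distant than in the treated tumor against a floor of 3 reads. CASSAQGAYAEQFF (TRBJ2-1) had nearly equal shares in both tumors of number 2, 0.189% and 0.198% (106 and 84 reads), and led TRBV13-3 in spleen 2 with 29 reads. In the tumors of number 1, 3 of the 4 leading TRBV13-3 clonotypes had 15 residues. A TRBJ2-3 clonotype of that length had 164 reads in treated tumor 1 and 57 in distant tumor 1, a TRBJ2-4 clonotype had 148 in treated tumor 1 alone, and a TRBJ1-1 clonotype had 212 in distant tumor 1 alone. The fourth, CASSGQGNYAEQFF with 14 residues, was second in distant tumor 1.

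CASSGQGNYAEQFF (TRBV13-3, TRBJ2-1) was found in all 6 libraries, with 120 and 238 reads in treated tumors 1 and 2, 71 and 44 in distant tumors 1 and 2, and 12 and 4 in spleens 1 and 2. It and the CASGDV clonotype of TRBV13-2 with TRBJ2-2 were the clonotypes of the family with at least 0.1% of reads in tumors of both numbers. Its share was 1.67 and 4.08 times higher in the treated than in the distant tumor of numbers 1 and 2. The neighbour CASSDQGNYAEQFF, related to it by D5G, led TRBV13-3 in spleen 1 with 26 reads, had 19 and 33 in treated and distant tumor 1 and 0 in number 2. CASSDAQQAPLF (TRBJ1-5) followed in spleen 1 with 18 reads, and had 14 in distant tumor 1 and 0 in the other 4 libraries.

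Of the TRBV13 clonotypes, 94.2% were in 1 library, 5.14% in 2, and 3 in all 6. Those 3, singled out after their values were seen, were the CASGDV clonotype with TRBJ2-2, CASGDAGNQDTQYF and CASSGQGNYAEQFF. Each had more reads in treated tumor 1 or treated tumor 2 than in any other library, and at most 32 in a spleen.

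Abundant clonotypes of number 1 and 2 were compared between the treated and the distant tumor. In number 1, 102 TRBV13 clonotypes had at least 0.05% of the reads of either tumor, of which 40 were found in both, 34 only in the treated and 28 only in the distant one. In number 2 these were 133, with 44 in both, 58 only in the treated and 31 only in the distant one. Shares were higher in the treated tumor for 63 of 102 in number 1 and for 90 of 133 in number 2. For TRBV13-3 the counts were 11 of 16 and 25 of 34, for TRBV13-2 they were 40 of 68 and 41 of 61, and for TRBV13-1 they were 12 of 18 and 24 of 38. Clonotypes of 1 tumor are not independent samples, so these counts carry no test. The same count over all TRBV genes was not made. Over all TRBV genes, 133 clonotypes had at least 0.1% of reads in treated tumor 1 and 71 in distant tumor 1. In treated and distant tumor 2 these were 190 and 100, so treated tumors had more abundant clonotypes over all genes as well.

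**Figure D4:**
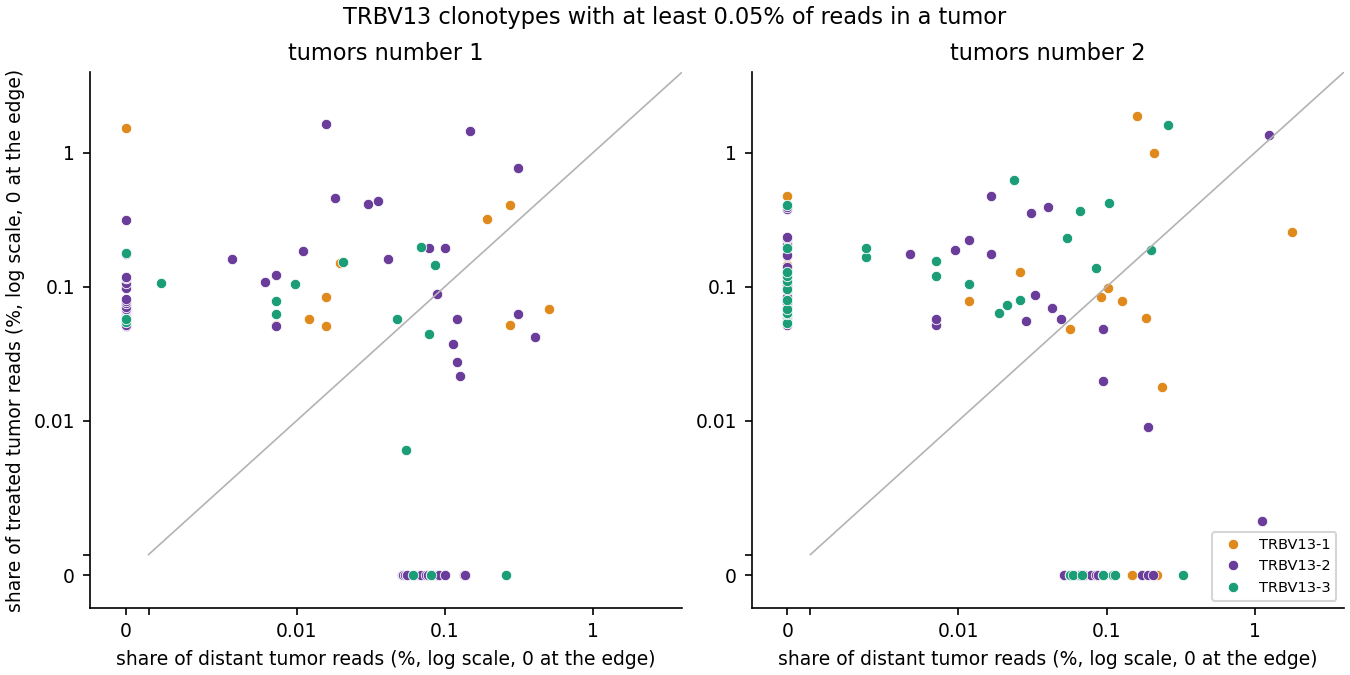
Share of treated tumor reads (%) against share of distant tumor reads (%) for TRBV13 clonotypes with at least 0.05% in either tumor of a number, log scales with 0 reads set at the edge and the diagonal as equal shares. In number 1, 63 of 102 lie above the diagonal, and in number 2, 90 of 133.

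More TRBV13 reads were in shared clonotypes when the treated and the distant tumor had the same number. Between treated and distant tumor 1, 130 clonotypes were shared and held 42.2% and 33.0% of the family's reads. Between treated and distant tumor 2, 109 were shared and held 51.5% and 34.7%. Across numbers, the 39 shared by treated tumor 1 and distant tumor 2 held 19.9% and 11.7% of their reads, and the 14 shared by treated tumor 2 and distant tumor 1 held 8.004% and 5.44%. The means were 40.4% ± 8.44 for the same number and 11.3% ± 6.31 for different numbers (SD, n = 4 values from 2 pairs of libraries each), and the 2 sets of values did not overlap. The values of a pair share their clonotypes, so no test was made. For all other TRBV genes the values were 38.7% and 47.6% in number 1 and 40.6% and 27.3% in number 2. Across numbers they were 13.8%, 4.70%, 10.2% and 12.8%, so the pattern was not particular to TRBV13.

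Between the treated tumors, more TRBV13-2 reads than reads of the other members were in shared clonotypes. Clonotypes shared by treated tumors 1 and 2 held 25.9% and 24.6% of the TRBV13-2 reads, against 7.52% and 0.0473% for TRBV13-1 and 4.87% and 9.12% for TRBV13-3. That order did not hold for every pair of tumors across numbers. Clonotypes shared by treated tumor 2 and distant tumor 1 held 4.75% of the TRBV13-2 reads of distant tumor 1, 8.07% of its TRBV13-1 reads and 3.85% of its TRBV13-3 reads. In treated tumor 1 the CASGDV clonotype and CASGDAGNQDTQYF alone held 11.7% and 10.4% of the TRBV13-2 reads. In treated tumor 2 the CASGDGG and CASGDV clonotypes held 14.3% and 5.06%. The TRBV13-2 values between the treated tumors thus rested mostly on few clonotypes. The difference between the genes was not tested. TRBV13-2 also has more clonotypes, and between the spleens 1108 were shared, 12.9% of those of spleen 1 and 10.1% of those of spleen 2. For TRBV13-1 the spleens shared 341 clonotypes (8.44% and 6.24%) and for TRBV13-3 284 (7.91% and 5.42%).

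Tumor clonotypes were also looked up in the spleens. Of the 50 most abundant TRBV13 clonotypes of each tumor, 19 (treated 1), 24 (distant 1), 26 (treated 2) and 34 (distant 2) were found in the spleen of the same number. In the other spleen 14, 14, 9 and 10 were found. The tumor reads in clonotypes shared with the spleen of the same number were 37.1%, 35.5%, 48.7% and 55.0%, against 28.6%, 19.3%, 16.7% and 22.1% for the other spleen. For clonotypes of all other TRBV genes the same-number values were 35.2%, 34.6%, 40.7% and 47.2%. Those for the other spleen were 18.5%, 44.9%, 16.6% and 16.7%. Distant tumor 1 thus had more of these reads in clonotypes shared with spleen 2 than with spleen 1. Spleen 2 had more TRBV13 reads than spleen 1 (31537 against 24529).

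The TRBJ partner of each gene was even between spleens and uneven between tumors. TRBJ2-7 was the leading partner in both spleens, with 20.8% and 20.3% of TRBV13-1 reads, 18.4% and 18.8% of TRBV13-2 reads and 20.04% and 20.5% of TRBV13-3 reads. In tumors the leading partner of TRBV13-1 was TRBJ2-7 in treated tumor 1 (40.8%) and distant tumor 1 (27.4%), TRBJ1-6 in treated tumor 2 (31.4%) and TRBJ2-4 in distant tumor 2 (34.9%). TRBV13-2 was led by TRBJ2-5 in treated tumor 1 (23.0%), by TRBJ2-7 in distant tumor 1 (19.5%) and by TRBJ2-1 in both tumors of number 2 (22.0% and 22.3%). TRBV13-3 was led by TRBJ2-1 in both treated tumors (19.1% and 29.8%), by TRBJ1-1 in distant tumor 1 (19.9%) and by TRBJ2-7 in distant tumor 2 (33.9%). The leading partner was that of the leading clonotype in 4 of 4 tumors for TRBV13-1, in 2 of 4 for TRBV13-2 and in 2 of 4 for TRBV13-3. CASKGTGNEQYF alone held 28.0% of TRBV13-1 reads in treated tumor 1, and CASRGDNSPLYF held 25.1% in treated tumor 2.

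TRBJ genes of the second cluster took 66.8% to 68.4% of each gene's reads in spleens. In tumors they took between 51.1% (TRBV13-1, treated tumor 2) and 81.5% (TRBV13-3, treated tumor 2). Both extremes were thus in the same library.

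**Figure D5:**
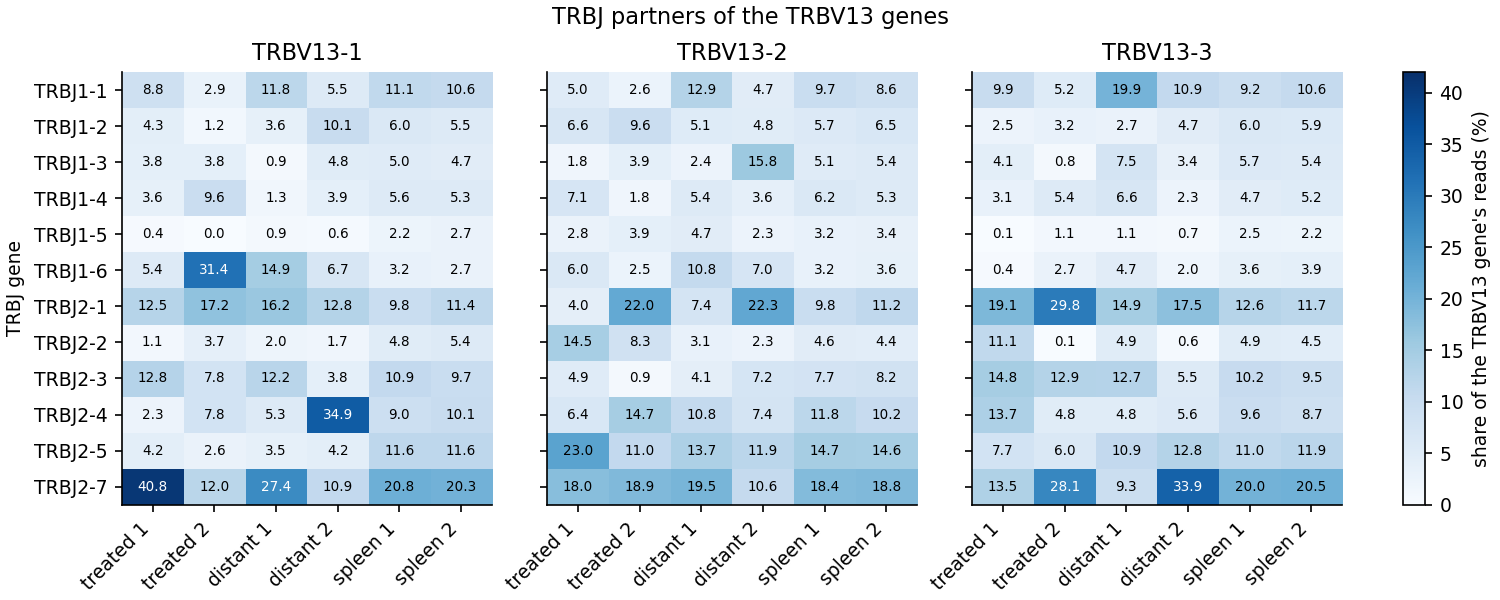
Share (%) of each TRBV13 gene's reads joined to each of the 12 TRBJ genes, per library, with the value written in each cell. The spleen columns are alike, with TRBJ2-7 leading, while tumor columns have single high cells such as 40.8% for TRBV13-1 with TRBJ2-7 in treated tumor 1.

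Usage of TRBV-TRBJ pairs was tested over 243 pairs, of which 36 were TRBV13 pairs. Between treated and distant tumors 0 of 243 passed (0%, edgeR's quasi-likelihood test, adjusted p), with 18 at an unadjusted p under 0.05, 2 of them TRBV13 pairs, and 9 of 275 unfiltered pairs called by DESeq2, 1 of them a TRBV13 pair. That pair was TRBV13-2 with TRBJ2-2, which took 2.03% and 0.788% of the reads of treated tumors 1 and 2, 0.248% and 0.248% of distant tumors 1 and 2, and 0.662% and 0.535% of spleens 1 and 2. Its edgeR log2 fold change was 2.504 with an SE of 0.68 (adjusted p = 0.482), while DESeq2 gave 2.17 (adjusted p = 0.0423). Its CASGDV clonotype held 80.9% and 60.9% of the pair's reads in the treated tumors. With each clonotype counted once edgeR gave 1.503 (adjusted p = 0.351).

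The next smallest p-values were those of TRBV13-3 with TRBJ2-3 and with TRBJ2-4. The first took 0.528% and 0.976% of treated tumors 1 and 2 and 0.285% and 0.224% of distant tumors 1 and 2, 1.56 higher on the log2 scale with an SE of 0.59 (edgeR adjusted p = 0.494). The second took 0.492% and 0.362% against 0.107% and 0.229% (1.35, SE 0.62, edgeR adjusted p = 0.494). The treated and distant tumors did not overlap for either pair, but both were chosen by their p in this comparison, so this adds no support. Over the 36 TRBV13 pairs, 24 had a higher and 12 a lower fitted share in treated tumors, with a median log2 fold change of 0.48 beside 0.22 over all 243. With TMM scaling these medians were 0.33 and 0.05.

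Between tumors and spleens 0 of 243 pairs passed (0%, edgeR), with 33 at an unadjusted p under 0.05, 3 of them TRBV13 pairs, and 5 called by DESeq2, none of TRBV13. The 3 were pairs of TRBV13-1, named for their p in this comparison, so a separation of their groups adds no support. With TRBJ2-5 it took 0.230%, 0.200%, 0.121% and 0.284% of treated tumors 1 and 2 and distant tumors 1 and 2, and 0.682% and 0.645% of the spleens, a log2 difference of -1.67 with an SE of 0.51 (edgeR adjusted p = 0.246). With TRBJ1-5 it had 16, 2, 26 and 17 reads in those tumors against 126 and 205 in the spleens (-2.77, SE 0.91, adjusted p = 0.264). With TRBJ1-6 it was above both spleens in each tumor, at 0.297%, 2.37%, 0.515% and 0.454% against 0.188% and 0.151% (2.25, SE 0.89, edgeR adjusted p = 0.325). The leading clonotype held 28.3%, 79.8%, 53.4% and 35.4% of the TRBJ1-6 pair's reads in the same tumors. With each clonotype counted once edgeR gave 1.62 for this pair (adjusted p = 0.277). Without treated tumor 1 the TRBJ1-5 and TRBJ1-6 pairs passed, among 22 of the pairs tested (-3.61 and 2.66, edgeR adjusted p = 0.0421 each). The direction over the family depended on the scaling, with 6 of 36 TRBV13 pairs higher in tumors and a median of -0.39 (all pairs -0.56) by library totals, and 23 of 36 higher and a median of 0.24 (all pairs 0.16) with TMM scaling.

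Mean CDR3 lengths of the 3 genes lay close together. The mean over clonotypes was 13.8 residues for TRBV13-1, 14.1 for TRBV13-2 and 13.7 for TRBV13-3, with 14 the most frequent length of each. TRBV13-1 clonotypes averaged 13.5 and 13.4 residues in treated tumors 1 and 2, 13.6 and 13.8 in distant tumors 1 and 2, and 13.8 and 13.8 in the spleens. All tumors lay below both spleens (13.56 ± 0.170, n = 4, against 13.84 ± 0.00624, n = 2, SD), with an exact permutation p of 0.133 (two-sided, adjusted 0.8 over 6 tests). Weighted by reads, the TRBV13-1 differences were larger, at -0.69 residues for treated minus distant tumors beside -0.24 over clonotypes, and -0.45 for tumors minus spleens beside -0.27, and neither weighted difference passed (exact permutation p = 0.33 each, two-sided, adjusted 1.0). For TRBV13-2 and TRBV13-3 the tumors overlapped the spleens (exact permutation p = 0.4 and 0.6, two-sided, n = 4 and n = 2).

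A CDR3 with the same TRBJ gene was sometimes listed under 2 or more TRBV13 genes of a library. These were 0.569% to 0.892% of the family's combinations of CDR3 and TRBJ gene in tumors, and 1.90% and 2.59% in spleens. Such combinations held 25.9% and 11.5% of the TRBV13 reads of treated tumors 1 and 2. In distant tumors 1 and 2 the values were 3.62% and 24.7%, and in spleens 1 and 2 they were 4.73% and 7.13%. In the spleens the combinations were mostly pairs of TRBV13-1 and TRBV13-3, the members with the same germline CDR3 start, with 213 in spleen 1 and 383 in spleen 2. These compare with 33 and 83 for TRBV13-1 with TRBV13-2 and 67 and 104 for TRBV13-2 with TRBV13-3. In the tumors TRBV13-1 and TRBV13-3 shared 0 to 5. The reads outside the leading gene of such a combination were at most 0.374% of a tumor's and 2.17% of a spleen's TRBV13 reads. Without nucleotide sequences, a true second rearrangement and an assignment to the wrong relative cannot be told apart.

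Sequences with a stop or frame mark, left out of all values above, made up 2.54% to 4.87% of a library's TRBV13 reads and 4.45% to 6.62% of the reads of all TRBV genes. The family was below the whole library in each of the 6. Its lowest value was in treated tumor 2 and its highest in spleen 2.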

How the data were processed

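Per the labels' protocols, TCR-β transcripts were amplified from total RNA by adaptor-ligation PCR with constant region primers and read on a MiSeq (paired reads of 300 bp). Each deposited file lists, per the file headers, TRBV, TRBJ, CDR3 amino acids, a whole read count and a percent. The deposited counts are not normalized, and the authors' percent values matched each count over the productive total within rounding. The aligner, the build and how genes were assigned are unstated: not given in the sources used here. Close relatives such as the TRBV13 genes may exchange reads in assignment.

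Usage was tested on the deposited counts over all TRBV genes, or TRBV-TRBJ pairs, of the 6 libraries (edgeR 4.0.16 quasi-likelihood test, library-total scaling, 3 groups, 3 residual degrees of freedom, Benjamini-Hochberg adjustment), with DESeq2 1.42.0, TMM and other alternatives. The edgeR test was run on simulated counts of genes and of pairs, and DESeq2 was not. Richness used the expected number of clonotypes at the smallest library's reads of each gene. Exact permutation tests of the difference in means compared the groups. Libraries with the same title number were taken as 1 mouse, since the design text gives 2 mice, though no label says so in words. Deviations of log2 shares from group means correlated by 0.319 (treated and distant tumor), 0.180 (treated tumor and spleen) and 0.0595 (distant tumor and spleen) over 22 genes with the same number.

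The members and lists were chosen with earlier results of these data known. Named are the 3 genes, the 2 leading clonotypes of each gene in each library (ties included), TRBV13 clonotypes at 0.1% or more in tumors of both numbers or among a library's 10 most abundant, the 3 TRBV13 pairs with the smallest p in each comparison, the nearest 3 genes in usage, and TRBV1 and TRBV29. Gene positions and sequences are from GENCODE M21 (GRCm38), and older names from RefSeq's gene table of the same assembly. CDR3s of 15 or more residues are given by genes and length. Python 3.11.15, numpy 2.4.6, pandas 2.3.3, scipy 1.17.1, Biopython 1.88 and matplotlib 3.10.9 were used.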

Additional observations from a re-analysis of the deposited data

How the results depend on the processing

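With 2 libraries a group, no permutation test could pass 0.05, so these tests say nothing about stability. No TRBV13 gene passed the usage test in any alternative. The number of TRBV genes called between treated and distant tumors rose from 0 to 2 with DESeq2 and to 1 with clonotypes counted once or without each library's 10 most abundant clonotypes, and was 0 to 1 with a library left out. Between tumors and spleens it was 2 with DESeq2, 2 with clonotypes counted once, 1 without the 10 most abundant clonotypes, and 0 to 2 with a library left out. None of these genes was a member. For pairs, DESeq2 called 9 between treated and distant tumors (1 of TRBV13) and 5 between tumors and spleens (0 of TRBV13). Leaving out a library gave 0 pairs between treated and distant tumors and 0 to 22 between tumors and spleens, the 22 without treated tumor 1, of which 2 were TRBV13 pairs.

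Small members' differences changed sign. Between treated and distant tumors the log2 fold change of TRBV13-1 ranged from -0.0502 (without distant tumor 1) to 0.91 with a library left out, and that of TRBV13-2 was -0.00246 with DESeq2 and -0.00982 without the 10 most abundant clonotypes. Between tumors and spleens that of TRBV13-1 was -0.00883 with TMM scaling, -0.12 with clonotypes counted once, and -0.27 to 0.21 with a library left out. With the replicate block it was -0.0540, and the block left 0 genes and 0 pairs called in each comparison, so it changed no call.

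CDR3 length differences between treated and distant tumors ranged from -0.0428 to 0.205 residues (TRBV13-2) and -0.247 to 0.219 (TRBV13-3) with a library left out, and for TRBV13-3 were 0.00269 weighted by reads and 0.111 without clonotypes of 1 read. The TRBV13-2 difference between tumors and spleens was 0.0283 without clonotypes of 1 read. The TRBV13-3 difference in top-10 share between treated and distant tumors ranged from -4.09 to 22.3 percentage points with a library left out. The cause of these changes was not tested.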
